A study of Saccharomyces cerevisiae with 10 samples.

Results

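The small-subunit ribosomal protein genes of budding yeast are the RPS genes, which encode the proteins of the small (40S) ribosomal subunit. They were taken by name, as nuclear protein-coding genes of the R64 gene table whose symbol is RPS followed by a number and an optional A or B, and 56 of the 6002 nuclear protein-coding genes with a strand met that rule. Of these, 48 form 24 pairs of A and B paralogs, and 8 are single-copy genes. Their promoters and bodies were examined for peaks of Swc4, measured by chromatin immunoprecipitation and sequencing (ChIP-seq) with an antibody against the c-Myc epitope.

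The study used Saccharomyces cerevisiae grown in YPD at 30 °C to an OD600 of 0.6. Cells of 4 genotypes carried SWC4-13MYC, namely wild type, yaf9d, eaf1d and swr1d, and a further wild type carried no tag. By yeast convention the names of the mutants stand for deletions of YAF9, EAF1 and SWR1, though the labels do not spell out the alleles. Each of the 5 groups had 2 repeats. The 4 deposited peak lists are 1 per tagged genotype, each made from its 2 repeats together. Every value below therefore comes from a pooled list, and no difference between genotypes could be tested against replicate spread. Nothing says whether the repeats came from separate cultures. The untagged samples were not analysed here, so signal that does not come from the tag was not measured, and "bound" means only that a peak was called.

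Swc4 is a subunit of a pair of chromatin complexes. SWR1 exchanges histone H2A for the variant H2A.Z, with Swr1 as its ATPase, and NuA4 acetylates histones, with Eaf1 as its scaffold. Yaf9, which binds acylated histone tails, is shared by both complexes. Ribosomal protein genes are among the most heavily transcribed genes of growing yeast. Rap1 binds most of their promoters and recruits Fhl1, Ifh1 and Sfp1, and NuA4 is known as a coactivator there. Many RPS genes carry an intron near the start codon, and most were duplicated in an ancient doubling of the genome, which is where the A and B copies come from.

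The lists held 625 nuclear peaks in wild type, 4522 in yaf9d, 2900 in eaf1d and 1258 in swr1d, so a gene meets a peak by its mere number more often in the longer lists. The fold of a peak is the authors' ratio of signal at the summit to local background. It ranks peaks within a list, and values of different lists stand side by side below without being compared. The median fold of all nuclear peaks was 1.67 in wild type, 1.88 in yaf9d, 1.85 in eaf1d and 1.69 in swr1d. The sources used here give neither the genome build of the lists nor the depth of the samples. Peak coordinates are those of the lists, and distances to genes assume that they are on R64.

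In wild-type cells most RPS promoters were bound, where the promoter is the 500 bp before the annotated start of the gene. A peak overlapped 35 of the 56 promoters (62.5%, exact 95% interval 48.5–75.1), against 13.0% of all nuclear protein-coding genes. The yaf9d list had a peak at 43 RPS promoters (76.8%, 63.6–87.0) with a background of 40.5%, and the swr1d list at 39 (69.6%, 55.9–81.2) with a background of 17.7%. The eaf1d list differed in its relation to the background: 16 RPS promoters had a peak (28.6%, 17.3–42.2), while 35.2% of all promoters did. The RPS share was thus above the share of all genes in 3 lists and, in eaf1d, near it. Intervals cover counting error only and treat genes as independent.

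**Figure D1:**
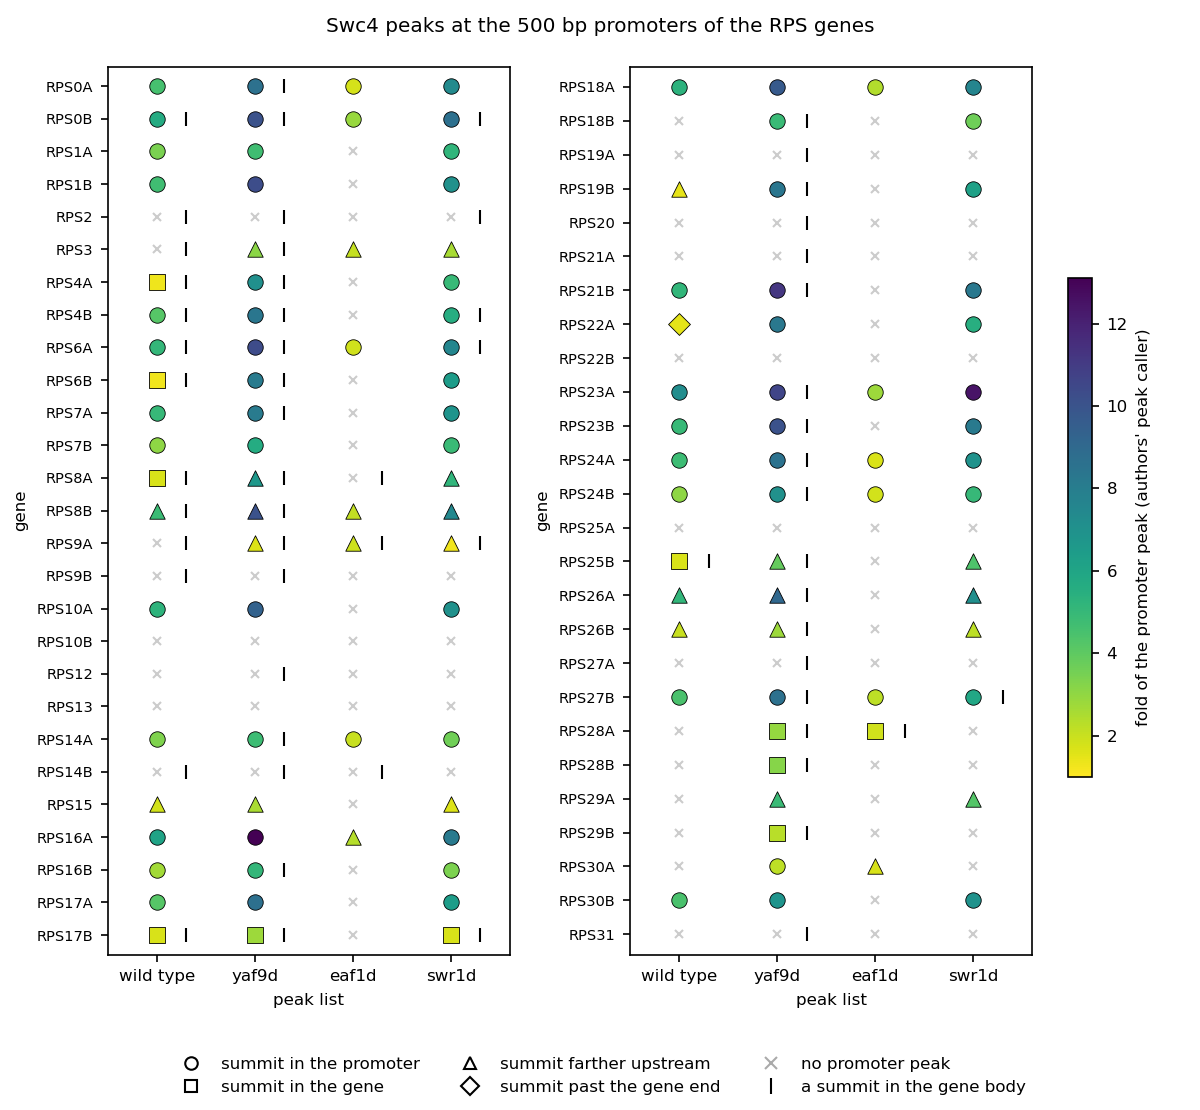
Peaks at the promoters of the RPS genes (rows, without those not reported by name) in the 4 lists (columns). Colour gives the authors' fold of the strongest promoter peak, for use within a list, the symbol gives the place of its summit, and a vertical tick marks a summit in the gene body. The eaf1d column holds far fewer promoter peaks than the others, with folds up to 2.85.

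The bound RPS promoters were nested, and for the overlaps with the long yaf9d list this was near what all genes showed. All 35 promoters with a wild-type peak also had one in swr1d and in yaf9d, and all 39 of swr1d had one in yaf9d, as did 98.3% of the swr1d promoters of all genes. The swr1d list added RPS3, RPS9A, RPS18B and RPS29A to those of wild type, and yaf9d added RPS28A, RPS28B, RPS29B and RPS30A to those of swr1d. Of these, only RPS18B in swr1d and RPS30A in yaf9d had the summit in the promoter. The swr1d summits of RPS3, RPS9A and RPS29A lay 789, 938 and 635 bp upstream. The yaf9d summits of RPS28A, RPS28B and RPS29B lay in the gene. All 16 eaf1d promoters were among those of yaf9d, where 85.1% of the eaf1d promoters of all genes were. Of the 16, 12 (75%) were among those of wild type, where 27.4% of the eaf1d promoters of all genes were. These 12 are 34.3% of the 35 wild-type RPS promoters (interval 19.1–52.2). For wild-type promoters of all other genes the share with a peak was 76.1% in eaf1d, 93.0% in yaf9d and 60.7% in swr1d. The RPS share was below that of the other wild-type targets in eaf1d and above it in swr1d. This was not particular to RPS genes. Of the 49 large-subunit (RPL) promoters with a wild-type peak, 14 (28.6%) had one in eaf1d and 45 (91.8%) in swr1d. The eaf1d share depended on the settings: with lists of equal length it was 5.71% for RPS genes and 38.1% for the others, and with promoters of 1000 bp it was 52.8% and 80.9%.

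The RPS promoters of highest fold were largely shared between wild type, yaf9d and swr1d. Of the 8 highest in each list, 5 were in the 8 of those 3 lists, among them RPS0B, RPS16A, RPS21B and RPS23A. RPS23A encodes a protein of the decoding centre that acts in translational accuracy. Its peak (chromosome VII, 726444–727003 in wild type) had a fold of 7.21 in wild type, 10.6 in yaf9d, 2.79 in eaf1d and 12.5 in swr1d. In the swr1d list this was the peak of highest fold of all, and it ranked 3 in wild type, 8 in yaf9d and 179 in eaf1d.

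RPS21B, whose protein lies beside Rps0 on the back of the subunit, had folds of 5.15 in wild type, 11.2 in yaf9d and 8.26 in swr1d and no eaf1d peak. RPS16A encodes a head protein whose tail reaches the tRNA in the P site. Its fold was 6.08 in wild type, 13.1 in yaf9d, 2.34 in eaf1d and 8.15 in swr1d, from a peak that also overlaps the promoter of the divergent gene RPL13B.

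RPS0B encodes a protein needed for maturation of the small-subunit rRNA. It led the RPS promoters in eaf1d, with a fold of 2.85 (chromosome XII, 241836–242114) and rank 161, and its fold was 5.69 in wild type, 10.1 in yaf9d and 8.67 in swr1d. Among the 8 highest were also RPS18A (5.32) and RPS10A (5.29) in wild type. RPS6A (10.3), whose protein is phosphorylated under TORC1, RPS1B (10.3) and RPS8B (10.05) were among those of yaf9d. In swr1d the same place was held by RPS23B (8.15) and RPS18A (7.59), among others.

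By rank, RPS promoters made up a large part of the strongest peaks in 3 lists. Among the 25 nuclear peaks of highest fold, 12 in wild type, 11 in yaf9d and 8 in swr1d overlapped an RPS promoter, and none did in eaf1d. Among the top 100 it was 25, 28 and 25, and again 0 in eaf1d. RPS promoter peaks were 35 of all 625 nuclear peaks in wild type and 45 of 4522 in yaf9d. They were 39 of 1258 in swr1d and 16 of 2900 in eaf1d. With 16 such peaks in the whole eaf1d list, a count of 0 in its top 100 is near the share of that list. The median fold of RPS promoter peaks was 4.46 in wild type, 7.09 in yaf9d and 6.20 in swr1d, each well above the median of its list, and 2.03 in eaf1d, close to the median of 1.85 there. Of the 16 eaf1d peaks 12 were above that median.

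In eaf1d the 16 promoter peaks were of 3 kinds by the place of their summit. At 10 genes the summit lay in the promoter, at 1 gene, RPS28A (fold 1.88), in the gene itself, and at 5 genes farther upstream. Among the 10 were RPS0A (1.79), RPS0B (2.85), RPS6A (1.87), RPS14A (2.01), RPS18A (2.40), RPS23A (2.79), RPS24A (1.71), RPS24B (1.83) and RPS27B (2.19). All 10 also had a summit in the promoter in wild type. Of the 5 others, the summit of the RPS9A peak (1.92) lay in the neighbouring gene MOT1, that of the RPS30A peak (1.72) in MEC3 and that of the RPS16A peak in the promoter of RPL13B, and those of RPS3 (2.05) and RPS8B (2.09) lay in no gene body or 500 bp promoter. The share of all promoters with a summit inside was 11.7% in eaf1d, and 10 of 56 is 17.9% (8.91–30.4).

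A peak in wild type, yaf9d and swr1d together with none in eaf1d was found at 23 RPS promoters (41.1%), where the background over all genes is 1.9%. In 12 of the 23 the summit lay in the promoter in each of the 3 lists (background 0.833% of all genes, or 50 of the 114 with the same pattern of peaks), among them RPS1A, RPS1B, RPS4B, RPS7A, RPS7B, RPS10A, RPS16B, RPS17A, RPS21B, RPS23B and RPS30B. Over all 35 wild-type promoters, those with an eaf1d peak had a median wild-type fold of 4.97 (n = 12, range 3.06–7.21) and those without had 3.07 (n = 23, 1.27–7.47). The second group includes the wide wild-type peaks of low fold described below. Among wild-type peaks with a summit in the promoter, those with an eaf1d peak had a median fold of 5.11 (n = 11, range 3.06–7.21) and those without had 4.60 (n = 12, 2.66–7.47), so the groups overlapped over most of their range. Peaks in all 4 lists were present at 12 RPS promoters (21.4%), with a background of 6.21%. The backgrounds of 1.9% and 6.21% include the many genes with no peak in the other 3 lists. Among promoters with a peak in wild type, yaf9d and swr1d, 23 RPS promoters lacked an eaf1d peak and 12 had one. Over all genes 114 such promoters lacked one and 373 had one, a smaller contrast than the shares over all genes give.

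Other genes of those 12 held similar values. RPS1A and RPS1B, of the platform, had folds of 3.46 and 4.74 in wild type, 4.72 and 10.3 in yaf9d and 5.19 and 7.03 in swr1d. RPS7A and RPS7B, whose protein takes part in early assembly of the subunit, had 5.02 and 3.07 in wild type, 8.12 and 5.67 in yaf9d and 6.86 and 4.90 in swr1d. RPS4B had 4.19, 8.36 and 5.56 in the same order of lists, and RPS30B had 4.46, 6.83 and 6.99. Each of these was above the median of its list, and none of these genes had an eaf1d peak.

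Genes with a summit in the promoter in all 4 lists included some of lower fold in the other lists. RPS14A, of the platform, had folds of 3.36 in wild type, 4.80 in yaf9d, 2.01 in eaf1d and 3.63 in swr1d. This is below RPS7A or RPS10A, which had no eaf1d peak, in wild type, yaf9d and swr1d. Other promoters with no eaf1d peak were below RPS14A in wild type, such as RPS7B (3.07) and RPS16B (2.66). RPS24A and RPS24B had 4.82 and 3.06 in wild type, 8.53 and 7.04 in yaf9d, 1.71 and 1.83 in eaf1d and 7.0 and 5.01 in swr1d. RPS27B, which encodes a zinc-binding protein, had 4.48, 8.65, 2.19 and 5.91 in that order. The eaf1d peaks were also narrow: RPS promoter peaks had a median width of 304 bp in eaf1d, where the list had 449.5 bp, against 586 bp in wild type (list 558 bp), 518 bp in yaf9d (list 366 bp) and 449 bp in swr1d (list 412 bp).

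Within the promoter the summits sat at a narrow distance from the start of the gene. Where the summit lay in the 500 bp, as it did at 23 RPS genes in wild type (41.1%, background 4.73%), 30 in yaf9d (53.6%, background 15.4%) and 29 in swr1d (51.8%, background 8.06%), its median distance upstream was 223 bp, 232 bp and 239 bp. The middle 50% of distances spanned 198–269 bp in wild type. In eaf1d the 10 summits had a median of 222 bp. Gene by gene the position was nearly the same across lists: wild type and swr1d differed by a median of 6 bp over 23 shared summits, yaf9d and swr1d by 3 bp over 29, and wild type and eaf1d by 16 bp over 10. The largest shift was at RPS0A, where the summit was 380 bp upstream in wild type, 369 bp in yaf9d, 365 bp in swr1d and 174 bp in eaf1d.

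**Figure D2:**
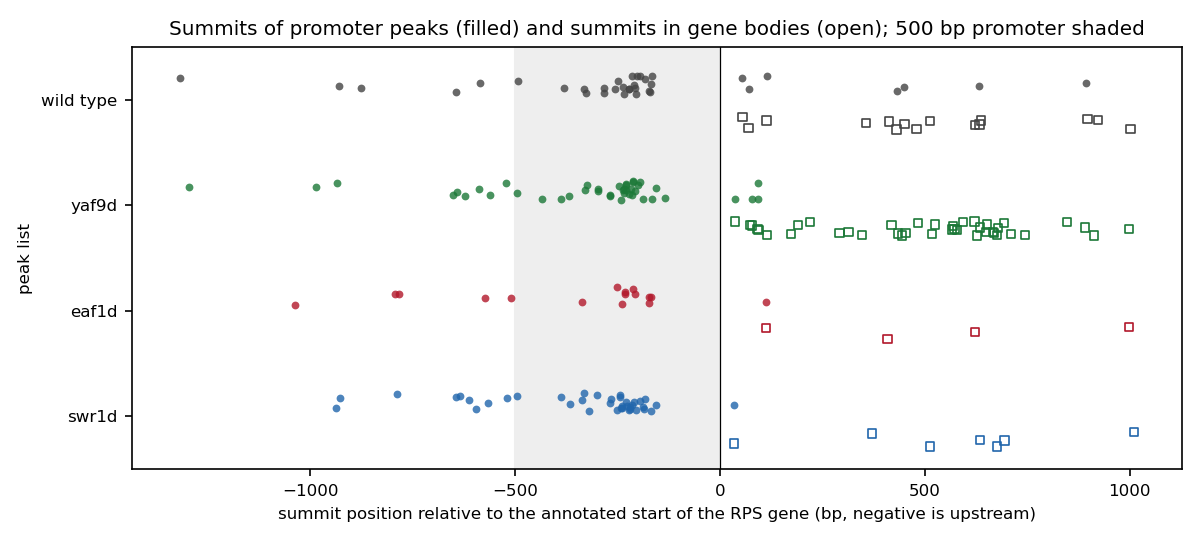
Position of each summit relative to the annotated start of its RPS gene in bp (x axis, negative is upstream), by list (y axis). Filled points are summits of promoter peaks, open squares are summits in gene bodies, the 500 bp promoter is shaded, and vertical scatter is added only to separate points. Most filled points lie around 200 bp upstream in every list, and open squares are most numerous in yaf9d, with 40, and fewest in eaf1d, with 4.

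At some genes the window of 500 bp cuts through the upstream region. The summits of RPS8B (644 bp upstream in wild type), RPS26A (586 bp), RPS29A (652 bp in yaf9d, 635 bp in swr1d), RPS25B (612 bp in swr1d) and RPS26B (567 bp in swr1d) lay just beyond it. With a fold of 4.84 at RPS8B and 5.14 at RPS26A, which encodes a protein of the mRNA exit channel, these were strong wild-type peaks. RPS genes had a median of 631 bp between their start and the next coding gene upstream, and all nuclear coding genes had 455 bp.

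At 6 genes, among them RPS4A, RPS6B, RPS8A, RPS17B and RPS25B, the wild-type promoter peak had its summit in the gene itself, with folds from 1.27 to 1.74. The RPS17B peak was 446 bp wide, and the other 5 were 1050 to 1959 bp wide and spanned promoter and gene, where peaks with a summit in the promoter had a median width of 558 bp. At RPS6B the wild-type peak was 1452 bp wide with its summit 633 bp into the gene. The yaf9d list had a pair of peaks there, 196 bp upstream (fold 8.10) and 651 bp into the gene (fold 1.64), and swr1d had the upstream peak (6.45). RPS4A showed the same split in yaf9d, with an upstream fold of 7.09. RPS17B kept its summit just inside the gene in wild type, yaf9d and swr1d, 55, 37 and 34 bp from the start. At RPS22A the wild-type peak (fold 1.48) spanned 1731 bp and had its summit in the convergent gene RPS14B, while the summit was 389 bp upstream of RPS22A in yaf9d (8.25) and swr1d (5.51).

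In gene bodies, peaks were common in yaf9d and rare in eaf1d. A summit lay in the body of 40 RPS genes in yaf9d (71.4%, interval 57.8–82.7), 15 in wild type (26.8%, 15.8–40.3), 7 in swr1d (12.5%, 5.18–24.1) and 4 in eaf1d (7.14%, 1.98–17.3). All nuclear coding genes had a body summit in 48.8% of cases in yaf9d, 6.55% in wild type, 11.6% in swr1d and 34.9% in eaf1d. RPS genes are short, with a median of 767 bp against 1200 bp for all genes. Among genes no longer than the longest RPS gene (1214 bp) the shares were 40.7% in yaf9d, 8.65% in wild type, 10.5% in swr1d and 29.0% in eaf1d. The RPS share was therefore above that of other genes in yaf9d and wild type, near it in swr1d and below it in eaf1d. Per kb of gene body, RPS genes had 0.988 summits in yaf9d against 0.433 over all genes, and 0.0988 in eaf1d against 0.273. RPL genes had 0.946 in yaf9d and 0.101 in eaf1d.

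**Figure D3:**
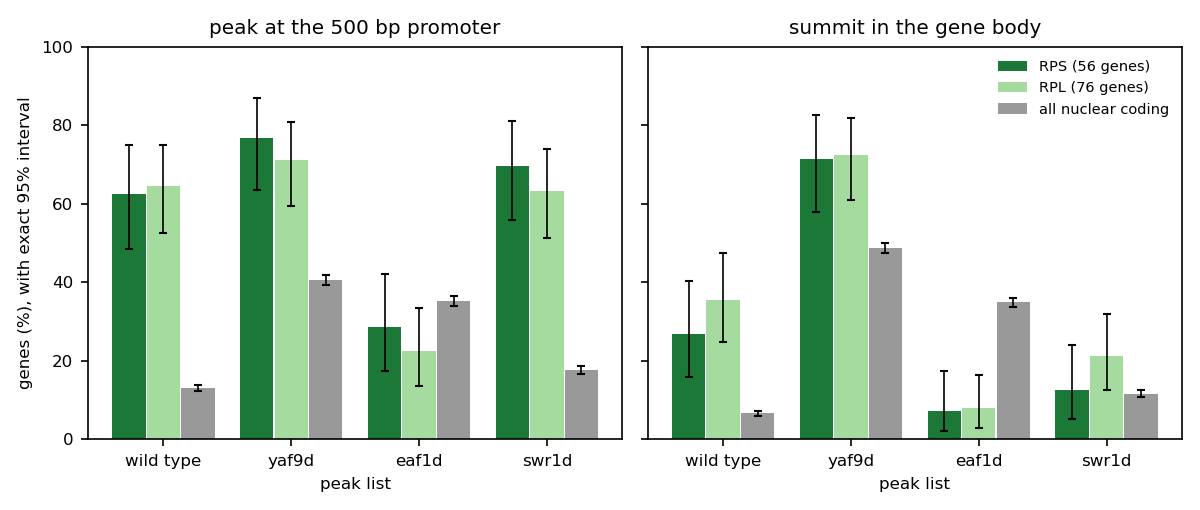
Share of genes with a peak at the 500 bp promoter (left) and with a summit in the gene body (right), in % with exact 95% intervals, for the 56 RPS genes, the 76 RPL genes and all 6002 nuclear coding genes. RPS bars rise above the grey bars in wild type and yaf9d in both panels, and in eaf1d the RPS bar of the right panel stands at 7.14% against 34.9%.

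The body summits in yaf9d lay towards the downstream end. Of the 40, 31 (77.5%) were in the downstream 50% of the gene, where 51.6% of body summits of all genes were. Their median distance from the annotated end was 186 bp. The placement was not particular to RPS genes, since 78.6% of the body summits of RPL genes in yaf9d lay in the downstream 50%. RPS28B (3.18) and RPS28A (2.92), short genes of a head protein, had the highest body folds, followed by RPS17B (2.78), RPS9A (2.63), RPS21A (2.59), RPS26B (2.54), RPS21B (2.49) and RPS20 (2.49). The folds of all 40 ran from 1.51 to 3.18 with a median of 2.09, and RPS promoter peaks of the same list had a median of 7.09. Some peaks, including those of RPS28B, RPS28A, RPS17B and RPS29B, also overlapped the promoter and are counted in both sets.

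The other lists had fewer body summits at RPS genes than yaf9d, all with a fold below 2. All 15 genes with a wild-type body summit also had one in yaf9d, as did 88.8% of such genes overall. Among them were RPS0B (1.32), RPS2 (1.16), RPS3 (1.37), RPS4A (1.29), RPS4B (1.31), RPS6A (1.45), RPS6B (1.27), RPS8A (1.74), RPS8B (1.96), RPS9A (1.53), RPS9B (1.66), RPS14B (1.48), RPS17B (1.74) and RPS25B (1.67), and none of the 15 reached a fold of 2. In swr1d they were RPS0B (1.32), RPS2 (1.19), RPS4B (1.16), RPS6A (1.18), RPS9A (1.84), RPS17B (1.71) and RPS27B (1.45). The 4 of eaf1d were RPS8A (1.35), RPS9A (1.62), RPS14B (1.33) and RPS28A (1.88). RPS9A, whose protein acts in decoding accuracy at the mRNA entry, was the gene with a body summit in all 4 lists, 998 to 1011 bp from its start and close to its end.

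No list had a promoter peak at 13 RPS genes (23.2%), with a background of 53.6%. They were RPS2, RPS9B, RPS10B, RPS12, RPS13, RPS14B, RPS19A, RPS20, RPS21A, RPS22B, RPS25A, RPS27A and RPS31. Of these 9 had a body summit in yaf9d (16.1% of RPS genes, background 19.1%), for example RPS12 (2.17), RPS19A (2.14), RPS27A (2.35) and RPS31 (2.12), which is made as a fusion to ubiquitin. RPS10B, RPS13, RPS22B and RPS25A had neither a promoter peak nor a body summit in any list (7.14%, background 32.7%). Of the 8 single-copy genes, which include RPS2, RPS3, RPS12, RPS13, RPS15, RPS20 and RPS31, a promoter peak was called at 2 in wild type, 3 in yaf9d, 1 in eaf1d and 3 in swr1d. The all-gene shares in that order were 13.0%, 40.5%, 35.2% and 17.7%. Among these peaks, those of RPS3 and RPS15 had their summits farther upstream than 500 bp wherever they were called. With 8 genes the counts carry no test.

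The paralogs of a pair encode nearly the same protein, and in every list some pairs had a promoter peak at 1 copy only. In wild type 16 of the 24 A copies and 17 of the 24 B copies had a promoter peak. Whether the copies of a pair differ more or less often than unrelated genes was not tested. In wild type both promoters of 12 of the 24 pairs had a peak, 1 promoter of 9 pairs had one, and neither of 3 pairs had one. The 9 unequal pairs had their peak at RPS10A (5.29), RPS14A (3.36), RPS18A (5.32), RPS19B (1.45), RPS21B (5.15), RPS22A (1.48), RPS25B (1.67), RPS27B (4.48) and RPS30B (4.46). The other copy of most of these pairs had no promoter peak in any list, which was the case for RPS10B, RPS14B, RPS19A, RPS21A, RPS22B, RPS25A and RPS27A. RPS18B had one in yaf9d (4.92) and swr1d (3.65), and RPS30A in yaf9d (2.19) and eaf1d (1.72).

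The copy with the stronger peak was the same in 3 lists. Both copies were bound in wild type, yaf9d and swr1d in 12 pairs, and in all 12 the copy of higher fold in wild type was also higher in yaf9d and in swr1d. RPS17A and RPS17B were among the most unequal, with folds of 4.18 and 1.74 in wild type, 8.70 and 2.78 in yaf9d and 6.43 and 1.71 in swr1d. RPS26A and RPS26B had 5.14 and 2.01 in wild type, 9.06 and 2.79 in yaf9d and 7.11 and 2.19 in swr1d. The wild-type summit of RPS26B lay 1318 bp upstream, in the promoter of COM2, while it lay 561 bp upstream in yaf9d and 567 bp in swr1d. RPS23A and RPS23B were more alike in yaf9d (10.6 and 10.05) than in swr1d (12.5 and 8.15). Across bound pairs the stronger copy exceeded the weaker by a median factor of 1.96 in wild type, 1.47 in yaf9d and 1.4 in swr1d. In wild type both summits lay in the promoter in 7 of the 12 pairs. The wild-type peaks of RPS4A (1.29), RPS6B, RPS8A (1.74) and RPS17B had their summits in the gene and enter these factors. The most unequal wild-type pair, RPS6 (5.11 and 1.27), includes such a wide peak at RPS6B. Neither letter led throughout, since A was higher in 7 and B in 5 of the 12 wild-type pairs.

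In eaf1d few pairs had a peak at both copies, where 11 of the 24 A copies and 4 of the 24 B copies had one. Both had one in 2 pairs, RPS0 and RPS24, 1 copy in 11 pairs and neither in 11 pairs, where wild type had 12, 9 and 3. The 11 single copies were A in 9 pairs (among them RPS6A, RPS9A, RPS14A, RPS16A, RPS18A, RPS23A, RPS28A and RPS30A) and B in 2 (RPS8B and RPS27B). Of the copies with a wild-type peak, an eaf1d peak was called at 8 of 16 A copies and 4 of 17 B copies. Among the 12 pairs with both copies bound in wild type, eaf1d had both in 2, 1 copy in 5 and neither in 5. In 4 of those 5 the copy with the eaf1d peak was the one of higher wild-type fold. With 24 pairs and 1 list each, these counts carry no test.

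**Figure D4:**
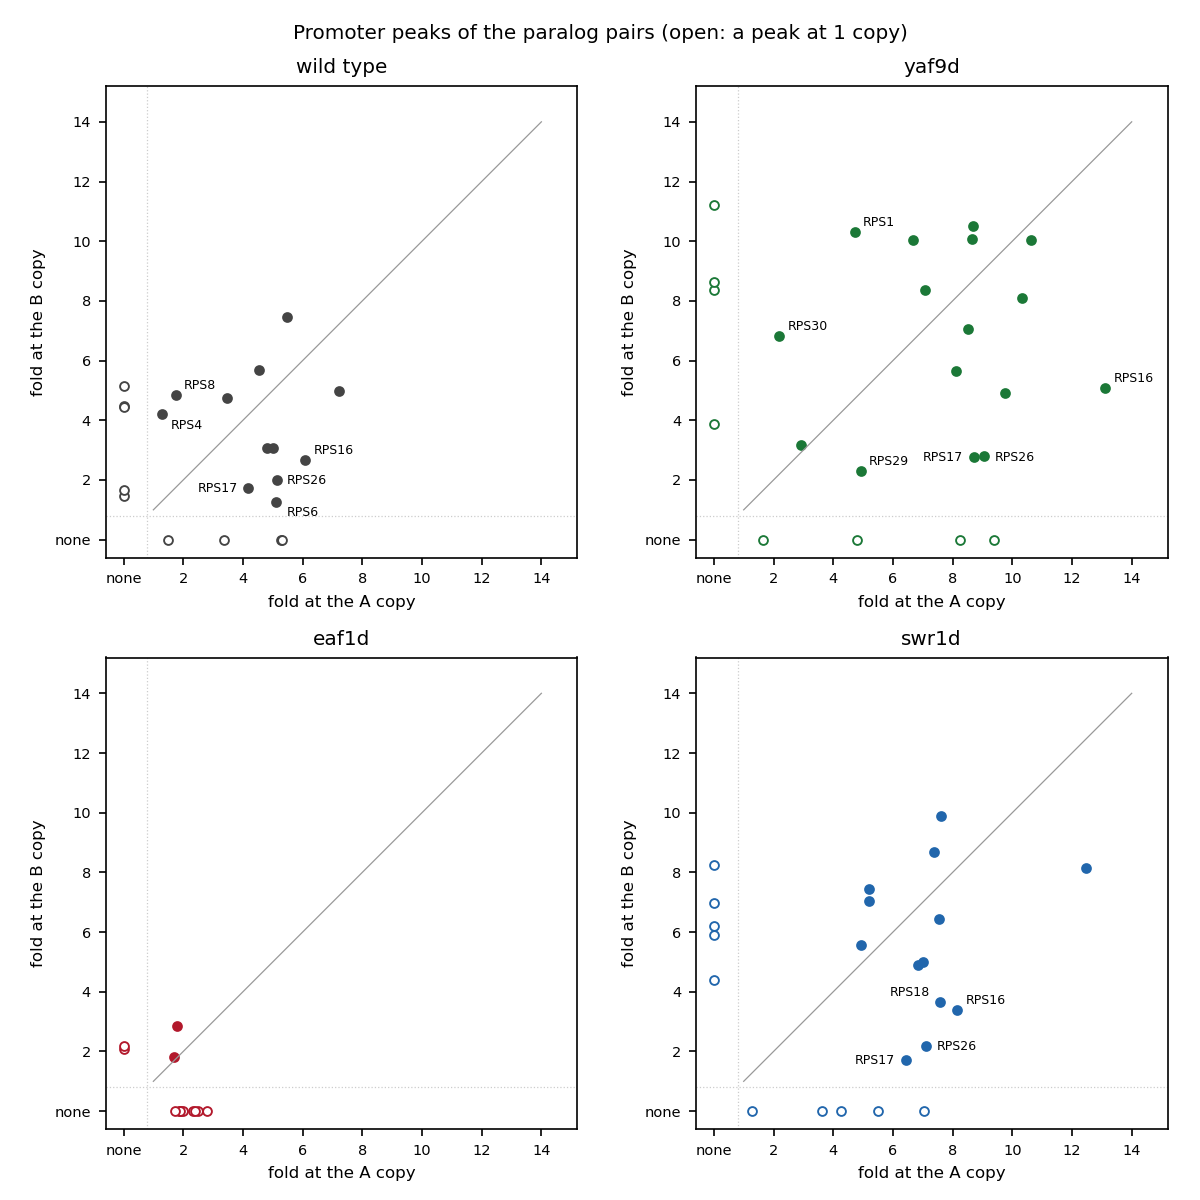
Authors' fold of the promoter peak at the A copy (x axis) and the B copy (y axis) of each pair, 1 panel per list. Filled points are pairs with a peak at both copies, open points on the line marked none have a peak at 1 copy, pairs with no peak are not drawn, and pairs whose folds differ by a factor above 2 are named. The eaf1d panel has 2 filled points and 9 open points on the A axis, and the other panels have 12, 16 and 13 filled points.

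By place in the subunit, genes of head proteins had promoter peaks at a lower share in wild type than those of the body and platform. This grouping comes from textbook knowledge of the ribosome and was made after the values were seen. The head group has 22 genes (among them those of RPS3, RPS10, RPS12, RPS15 to RPS20, RPS25, RPS28, RPS29 and RPS31), and 34 genes form the other group. Promoter peaks were called at 10 head genes (45.5%) and 25 others (73.5%) in wild type, 16 (72.7%) and 27 (79.4%) in yaf9d, 4 (18.2%) and 12 (35.3%) in eaf1d, and 13 (59.1%) and 26 (76.5%) in swr1d. The exact intervals of the 2 shares overlap in every list.

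Neighbouring genes shared some of these peaks. The upstream coding neighbour was divergent for 34 RPS genes and tandem for 22. Promoter peaks were called in wild type at 23 divergent (67.6%) and 12 tandem genes (54.5%), where all nuclear coding genes had 16.1% and 9.62%. In 4 places a single peak met the promoters of an RPS gene and of another ribosomal protein gene transcribed away from it: RPS16A with RPL13B, RPS16B with RPL13A, RPS22A with RPL39, and RPS15 with RPP2A, of the ribosomal stalk. These were shared in wild type, yaf9d and swr1d, and in eaf1d only that of RPS16A and RPL13B was. The RPS15 peak had its summit in the body of RPP2A, 930 bp from the start of RPS15 in wild type, so which gene such a peak belongs to cannot be told from the lists.

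The genes of large-subunit proteins (RPL, 76 genes) had a similar pattern. Their promoter share was 64.5% in wild type, 71.1% in yaf9d, 22.4% in eaf1d and 63.2% in swr1d, and their body summits were at 72.4% of genes in yaf9d and 7.89% in eaf1d. No difference between RPS and RPL genes was tested, and the exact intervals of their shares overlap in every list. Among 9 regulators of ribosomal protein genes, promoter peaks were called at 2 in wild type, 4 in yaf9d, 4 in eaf1d and 3 in swr1d (22.2%, 44.4%, 44.4% and 33.3%, against the all-gene shares of 13.0%, 40.5%, 35.2% and 17.7%, with intervals that include them). REB1, a general regulatory factor, had one in all 4 lists (1.80, 3.02, 2.25 and 2.98 in the order wild type, yaf9d, eaf1d and swr1d). SFP1, an activator of ribosomal protein genes, had one in wild type (2.74), yaf9d (2.42) and eaf1d (3.81). FHL1, IFH1, ABF1, TBF1 and CRF1 had none in any list. A summit lay in the promoter of 0 of the 9 regulators in wild type and in eaf1d. The wild-type and eaf1d peaks of REB1 and SFP1 thus had their summits outside it. In yaf9d and swr1d it was 1 of the 9 each. Among 16 assembly and associated factors of the small subunit it was 2 in wild type, 7 in yaf9d, 5 in eaf1d and 1 in swr1d, shares of 12.5%, 43.8%, 31.2% and 6.25% whose intervals also include the all-gene shares. RIO1, a kinase of late maturation, was among them at 2.39 in yaf9d and 2.54 in eaf1d. Of these 16 genes, a summit lay in the promoter of 0 in wild type, 1 in yaf9d, 3 in eaf1d and 0 in swr1d.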

How the data were processed

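The 10 samples form 5 groups by their titles, and each of the 4 deposited peak lists pools both repeats of a tagged group, per the labels. Per the submitters' processing notes, the authors trimmed reads with fastp 0.21.0, aligned them with BWA 0.7.15-r1140, sorted them with SAMtools 1.4 and called peaks with MACS2. The sources used here do not give the build, the control, the settings of MACS2 or the depth of each sample. The authors' deposited values are the fold enrichment at the summit, a ratio, with −log10 q there and a summit offset; their −log10 p was not used. The deposited score, 10 times −log10 q, was not used.

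Genes came from the R64 table of RefSeq, with strand from the systematic name. A promoter peak overlapped the 500 bp upstream by at least 1 bp; with several, that of highest fold was described. Mitochondrial peaks were left out. No test was run between lists. Intervals are exact Clopper-Pearson 95% intervals (SciPy 1.17.1, pandas 2.3.3, Python 3.11.15). The overlap rules were tested on simulated data. The search for promoter motifs that was planned was not run, since it needs sequence not used here.

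The members, gene lists and tests were chosen with earlier results of these data known. The rule for named genes took the 8 promoters of highest fold in each list, promoters with an eaf1d summit, body summits in wild type and swr1d with the 8 highest in yaf9d and eaf1d, unequal wild-type pairs, promoters with no peak, and peaks shared with another ribosomal protein gene. A few RPS genes are counted but not reported here by name. RPS genes with near-identical copies can share reads, and the sources used here do not say how such reads were assigned. The alternatives kept peaks with −log10 q from 5 up, or with a fold from 2 up, cut all lists to the same length, or used promoters of 250 and 1000 bp, the summit in the promoter, overlap of 50% of the shorter of peak and promoter, bodies extended by 100 bp, any overlap with the body, or peaks joined when under 200 bp apart.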

Additional observations from a re-analysis of the deposited data

How the results depend on the processing

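Of 120 values under 10 alternatives, 99 stayed close to the reported one (counts within a factor of 1.5, shares within their interval) and 21 moved. With a fold of at least 2, RPS bodies with a summit numbered 24 in yaf9d. There were 0 in wild type, 0 in eaf1d and 0 in swr1d. The eaf1d promoters numbered 9, and eaf1d pairs with both copies bound 0. That cutoff kept 1635 yaf9d peaks, but only 1073 of eaf1d, 491 of swr1d and 190 of wild type. For the alternative counts of promoters and bodies, no share over all genes is given here. Whether those counts are particular to RPS genes was not tested. All lists were also cut by −log10 q to an equal length of 625 peaks. Body counts were then 26 in yaf9d, 15 in wild type, 2 in swr1d and 0 in eaf1d. The eaf1d promoters numbered 2, its pairs 0, and the share of wild-type promoters with an eaf1d peak was 5.71%. With −log10 q of at least 5, swr1d had 4 bodies. With any overlap in place of the summit, bodies numbered 35 in wild type and 17 in swr1d, and 4 in eaf1d as before. With the summit required in the promoter, wild type had 23 promoters and 7 pairs, eaf1d 10 promoters, and 13 promoters were bound in the other 3 lists without an eaf1d summit. Promoters of 1000 bp gave 5 eaf1d pairs and an eaf1d share of 52.8%. A list cut to fewer peaks cannot gain genes with a peak. At equal length, RPS promoters with a peak numbered 40 in yaf9d and 38 in swr1d, against 43 and 39 in the full lists. Why counts moved more in eaf1d was not tested. The shares of wild-type promoters with a peak in yaf9d and swr1d stayed between 93.5% and 100% under every alternative.

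No paired analysis was possible because each list pools both repeats, and for the same reason no fit without a repeat exists. The sources used here give no depth per sample, which limits what the absence of a called peak shows.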
